A study of Mus musculus with 2 samples.

Results

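The oxidative phosphorylation genes of mouse small cell lung cancer cells are described here, the part encoded in mitochondria apart from the part encoded in the nucleus. The genes were chosen by symbol alone: those that begin with mt-, Nduf, Uqcr, Atp5, Cox4, Cox5, Cox6, Cox7 or Cox8, with Sdha, Sdhb, Sdhc and Sdhd, leaving out pseudogenes marked -ps. This gave 105 of the 27998 listed genes, 13 encoded in mitochondrial DNA and 92 in the nucleus. By complex, the nuclear genes comprise 36 subunits of complex I, 4 of complex II, 8 of complex III, 19 of complex IV with isoforms of restricted tissue counted, 15 of complex V, and 10 assembly and other factors. The mitochondria-encoded genes are 7 subunits of complex I, 1 of complex III, 3 of complex IV and 2 of complex V.

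The respiratory chain passes electrons from NADH (complex I) and succinate (complex II) through complex III to complex IV, which reduces oxygen, and complexes I, III and IV pump protons that drive ATP synthesis by complex V. All complexes except II join subunits translated inside mitochondria with a larger number made in the cytosol and imported. Mitochondrial DNA is transcribed by its own polymerase as long precursors of both strands that are cut into shorter messages, so the pair of gene sets is under separate control. In cells short of oxygen, hypoxia-inducible factors raise glycolysis genes and genes such as Bnip3, whose protein marks mitochondria for removal, and Ndrg1 and Adm, which are widely used as hypoxia markers.

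Each of 2 tumors was profiled as 1 library of single cells on the 10x Genomics Chromium platform, TKO1 from one mouse and TKO2 from another. Both mice are labelled with the genotype Rb-/-; Trp53-/-; Rbl2-/- and the Rosa26 membrane-Tomato/membrane-GFP reporter allele, on a mix of C57BL/6 with both 129/SVJ and 129/SvOla. These genes are deleted conditionally by Cre, so the label does not hold for cells that were not recombined. Age was 8-9 months, and the lungs were harvested 7 months after Adeno-CMV-cre, with no treatment named for either. The labels are the same for both apart from an unexplained string of letters at the end of the TKO1 genotype, left out above, so tumor, mouse, library and capture cannot be told apart. The CMV promoter is not restricted to a cell type, so which cells were recombined is not defined by the model, and each tumor is a single dissected mass sorted for live cells.

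The tables hold 4514 cell barcodes and 5285038 unique molecular identifiers (UMIs, each a captured RNA molecule) for TKO1 and 3816 barcodes and 8291430 UMIs for TKO2, with 22 barcode sequences occurring in both. The 3193 and 3568 cells kept had over 500 genes and a mitochondria-encoded share under 10%, and no barcode of TKO1 exceeded 3.88% and none of TKO2 exceeded 7.60%. Clusters were named from marker genes: 2990 cells of TKO1 (4226973 UMIs, median 1212.5 per cell) and 3380 of TKO2 (7757656 UMIs, median 1983) were neuroendocrine-like, in 8 clusters each. Besides these there were 105 club cell-like cells in TKO1, 98 and 122 macrophage-like cells, and 66 cells of TKO2 left unnamed because their cluster carried club cell and neuroendocrine markers together. The 18 neuroendocrine markers, all detected in both tumors, summed to 23317 CPM (UMIs scaled by the group's total) in TKO1 and 2099 CPM in TKO2. The 14 macrophage markers summed to 62.7 and 21.7 CPM in the neuroendocrine-like cells, and the 7 ciliated cell markers to 222 and 22.0 CPM. Cluster 4 of TKO1 (370 cells) was led by ciliated cell genes and held 3 of those 7 markers, so results are also given without it. The deleted genes still gave UMIs (Rb1 77.1 and 15.2 CPM, Trp53 49.0 and 62.9 CPM, Rbl2 9.46 and 1.80 CPM), but 3' counts do not show which exons remain and so check nothing about the deletions. With 1 library per tumor no comparison has a p-value, and all intervals are exact 95% intervals (Poisson for levels, Clopper-Pearson for shares, conditional binomial for log2 ratios) that cover counting error only.

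The mitochondria-encoded share of UMIs was lower in TKO1 than in TKO2, while the nuclear-encoded share was almost level. In the neuroendocrine-like cells, mt- genes held 0.572% of UMIs in TKO1 (0.565 to 0.579, 24173 UMIs) and 0.958% in TKO2 (0.951 to 0.965, 74291 UMIs). The log2 ratio of TKO1 to TKO2 was -0.74 (-0.76 to -0.72), a 1.67-fold difference. The 92 nuclear genes held 4.28% (4.26 to 4.30) and 4.39% (4.38 to 4.41), a log2 ratio of -0.04 (-0.04 to -0.03). The median log2 ratio of all 12926 genes with at least 10 UMIs was 0.37, so the typical gene had a higher share in TKO1. Relative to that median gene, the log2 ratio was -1.11 for the mitochondria-encoded part and -0.40 for the nuclear part. Cytoplasmic ribosomal protein genes held 10.7% of UMIs in TKO1 and 23.1% in TKO2. With these and the mt- genes taken out of the total, the log2 ratios were -0.97 and -0.26.

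The mitochondria-encoded share also differed from cluster to cluster within each tumor, but the ranges of the tumors did not meet. It ran from 0.506% to 0.643% over the 8 neuroendocrine-like clusters of TKO1 and from 0.828% to 1.21% over those of TKO2. The nuclear share ran from 3.74% to 5.11% and from 4.12% to 4.78%, so those ranges overlapped. Per cell, the median mitochondria-encoded share was 0.536% in TKO1 (5th to 95th percentile 0.122% to 1.15%) and 0.942% in TKO2 (0.303% to 1.85%), and 52 and 10 cells had no mt- UMI. The median nuclear share per cell was 4.30% (2.76% to 6.10%) and 4.42% (3.11% to 6.17%). In macrophage-like cells the mitochondria-encoded share was 0.548% and 0.793%, a log2 ratio of -0.53 (-0.66 to -0.41). These cells also carried neuroendocrine markers, at 4510 CPM in TKO1 and 754 CPM in TKO2, and the part of free RNA in their values was not tested. In the barcodes that were not retained, which were not sorted into cell classes, the share was 0.605% and 1.05% (-0.79, -0.87 to -0.71). The nuclear share of macrophage-like cells was 3.33% and 3.43% (-0.04, -0.10 to 0.01). Over 4 bins of neuroendocrine-like cells from the shallowest to the deepest, the mitochondria-encoded share was 0.584%, 0.593%, 0.578% and 0.554% in TKO1 and 1.09%, 1.03%, 0.980% and 0.881% in TKO2, so every bin of TKO2 was above every bin of TKO1. Without cluster 4 of TKO1 the log2 ratios between the tumors were -0.73 and -0.03.

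**Figure D1:**
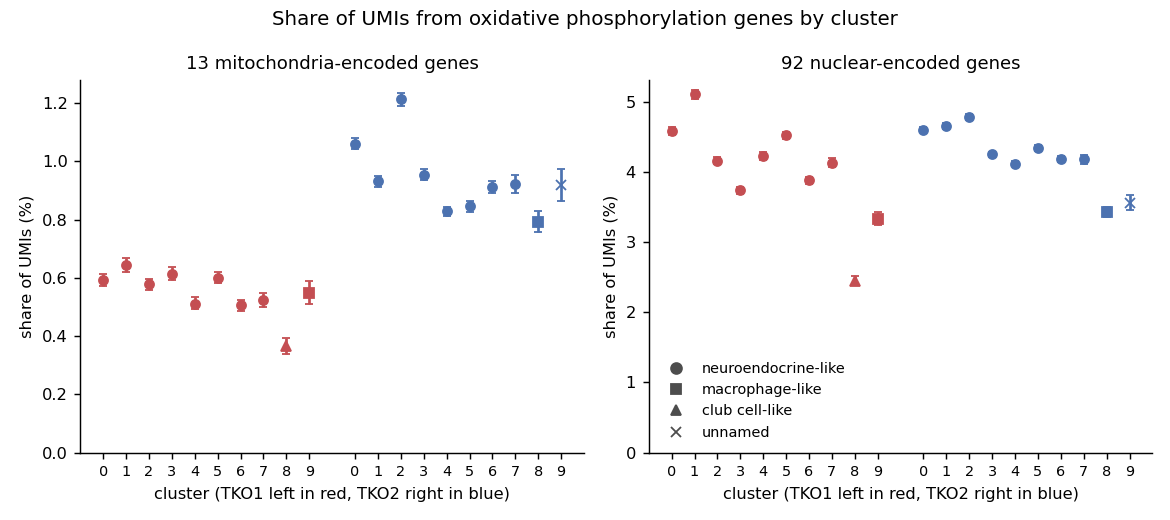
Percent of UMIs from mitochondria-encoded genes (one panel) and nuclear-encoded oxidative phosphorylation genes (the other panel) for each cluster of TKO1 and TKO2, with bars for exact 95% counting intervals. The mitochondria-encoded shares of the neuroendocrine-like clusters lie between 0.506% and 0.643% in TKO1 and between 0.828% and 1.21% in TKO2, while the nuclear shares of the tumors overlap.

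The mitochondria-encoded UMIs came almost wholly from a few of the 13 genes. In TKO1, mt-Cytb (cytochrome b, the only mitochondria-encoded subunit of complex III) held 34.4% of them, mt-Nd1 29.0% and mt-Nd4 27.6%, the latter pair being core subunits of complex I. Several others were nearly absent: mt-Co2 had 5 UMIs in TKO1 and 6 in TKO2, mt-Co3 9 and 4, mt-Atp6 7 and 17, and mt-Nd3, mt-Nd4l and mt-Atp8 had 0 in both. A count of 0 allows a level of up to 0.873 CPM in TKO1 and 0.476 CPM in TKO2. These genes are ordinarily among the most abundant messages of a cell, so the sequences at their 3' ends, where this method reads, were compared with the rest of the transcriptome. Every stretch of 50 bases in the last 350 bases of each GENCODE vM21 transcript (GRCm38, the assembly called mm10 in the submitters' processing notes) was looked up in all other transcripts of that annotation.

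All such stretches of mt-Co1 and mt-Co2 were shared with another transcript (100%), as were 99.7% of those of mt-Co3, 99.0% of mt-Atp6, 98.8% of mt-Nd4l and 98.0% of mt-Nd3. Their copies are pseudogenes of nuclear chromosome 1, such as Gm28661 (chr1:24614885-24615565, reverse strand) for mt-Co2 and Gm28437 (chr1:24613189-24613971, reverse strand) for mt-Co3. The share was 26.6% for mt-Nd2, with a copy in Gm13339 on chromosome 2 (chr2:22590024-22590533), 1.66% for mt-Nd5, and 0 for mt-Nd1, mt-Nd4, mt-Cytb, mt-Nd6 and mt-Atp8. The 6 genes with at least 50% shared held 1.93% of the mitochondria-encoded UMIs in TKO1 and 1.07% in TKO2, with a median level of 1.42 and 0.645 CPM, against 286 and 471 CPM for the other 7. The pattern was not complete, since mt-Co1, wholly shared, had 446 and 768 UMIs. With nothing shared, mt-Nd6 had 28 and 36 UMIs and mt-Atp8 none. The ends searched are those of the annotated genes, and whether each is the end of a captured message was not tested. The closest copies of the mt- genes are not among the listed genes. Of the nuclear genes, 4 had at least 50% shared, with a median of 70.9 and 77.4 CPM, against 406 and 405 CPM for the other 88. Atp5h, 1 of the 4 (63.3%), had 805 and 770 CPM. Reads that match several places equally are commonly discarded when genes are counted, and whether that happened here was not tested. Stretches of 90 bases that end 60 bases before the transcript's end are printed to show which 3' ends have a copy. Those of mt-Co2 (chrM:7547-7636), mt-Co3 (chrM:9241-9330) and mt-Nd2 (chrM:4802-4891) matched the copy named above with 0 mismatches, and that of mt-Cytb (chrM:15139-15228) has none. All are on the forward strand.
mt-Co2: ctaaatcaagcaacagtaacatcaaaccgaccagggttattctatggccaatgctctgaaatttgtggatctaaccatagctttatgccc
mt-Co3: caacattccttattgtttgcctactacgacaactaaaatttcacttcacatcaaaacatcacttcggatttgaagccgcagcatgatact
mt-Nd2: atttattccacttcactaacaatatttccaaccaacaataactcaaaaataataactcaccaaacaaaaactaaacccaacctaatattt
mt-Cytb: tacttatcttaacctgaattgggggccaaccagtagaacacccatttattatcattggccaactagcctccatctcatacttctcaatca

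The difference between the tumors was not the same for every mitochondrial message. mt-Nd1 (chrM:2751-3707) had 1661 CPM in TKO1 (1622 to 1700) and 3421 CPM in TKO2 (3380 to 3462), a log2 ratio of -1.04, and mt-Cytb (chrM:14145-15288) had 1967 and 3529 CPM (-0.84). mt-Nd2 (chrM:3914-4951) had 286 and 471 CPM (-0.72). For these 3 of the 10 mt- genes with at least 10 UMIs every TKO1 cluster was below every TKO2 cluster, as for 692 of all 12926 genes. The reverse held for 0 of the 10 and for 1473 of all genes. mt-Nd4 (chrM:10167-11544) had 1577 and 1975 CPM, a ratio of only -0.32 with clusters that overlapped. mt-Nd5 (chrM:11742-13565) was the other way, with 111 CPM in TKO1 (101 to 122) and 73.9 CPM in TKO2 (67.9 to 80.2), and mt-Co1 (chrM:5328-6872) had 106 (95.9 to 116) and 99.0 CPM (92.1 to 106). mt-Nd6, the one subunit read from the opposite strand (chrM:13552-14070), had 6.62 CPM (4.40 to 9.57) and 4.64 CPM (3.25 to 6.42). Without mt-Nd1 the ratio of the summed share was -0.60.

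**Figure D2:**
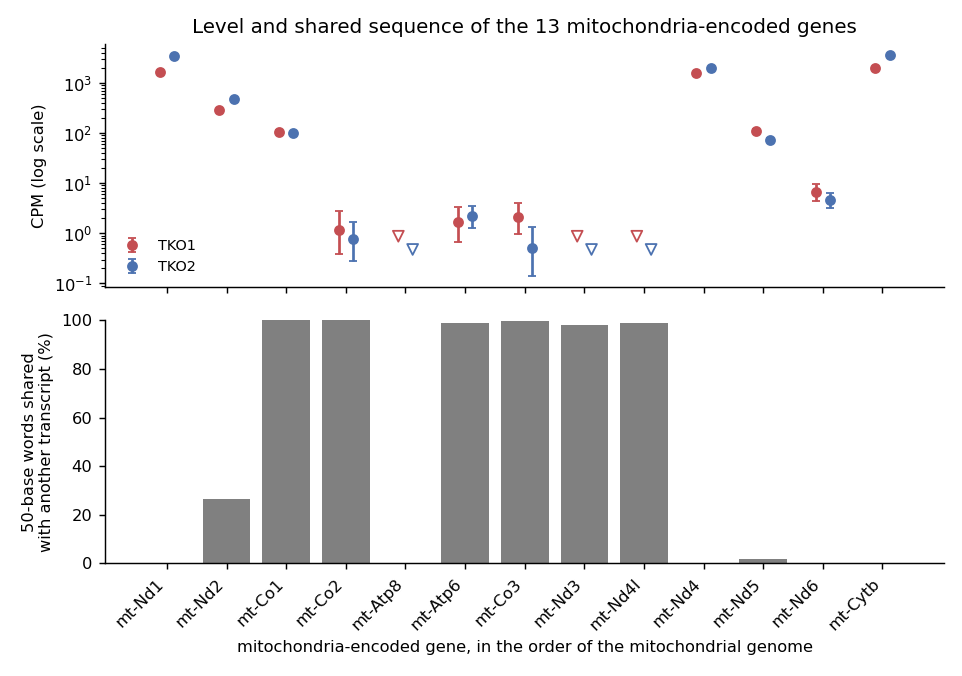
Level (CPM, log axis) of each of the 13 mitochondria-encoded genes in neuroendocrine-like cells of TKO1 and TKO2 beside the percent of its 3' end shared with other transcripts. Points are CPM with exact 95% Poisson intervals, and triangles are upper limits for genes with 0 UMIs; the 6 genes with at least 50% shared have a median of 1.42 CPM in TKO1.

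Among the nuclear genes, the complexes differed between the tumors by small amounts in both directions. Complex I subunits held 1.54% of UMIs in TKO1 and 1.43% in TKO2 (log2 ratio 0.10, 0.09 to 0.11), complex II 0.104% and 0.0978% (0.09, 0.03 to 0.14) and complex III 0.486% and 0.477% (0.03, 0.002 to 0.05). Complex IV held 1.19% and 1.36% (-0.19, -0.20 to -0.17), complex V 0.895% and 0.941% (-0.07, -0.09 to -0.06) and the factors 0.0679% and 0.0832% (-0.29, -0.36 to -0.23). All of these ratios were below that of the median gene, 0.37. Of the 88 nuclear genes with at least 10 UMIs over both tumors, 42 had a ratio above 0 and 46 below, and 20 were above the median gene and 68 below. Relative to the median gene, 4 were at least 2-fold higher in TKO1 and 8 at least 2-fold lower, where 23.2% of all 12926 genes were that much higher and 18.7% that much lower. The shares of these genes past 2-fold were thus below those of all genes. With a minimum of 50 UMIs, 4 and 7 of 87 were past 2-fold, beside 19.8% and 16.2% of all genes. Genes with few UMIs pass 2-fold more easily by counting error, and genes matched in level were not compared. With the minimum of 10 UMIs but without the centring, the counts were 5 and 4.

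The largest differences were in isoforms of complex IV that replace a widely used partner in certain tissues. Cox7a1 (chr7:30184144-30186078), the heart and skeletal muscle form of subunit 7a, had 35.0 CPM in TKO1 (29.6 to 41.1, 148 UMIs) and 1.42 CPM in TKO2 (0.708 to 2.54, 11 UMIs), a log2 ratio of 4.63 (3.74 to 5.66). Cox6a2 (chr7:128205435-128206387), the muscle form of subunit 6a, had 231 CPM (217 to 246, 978 UMIs) and 13.1 CPM (10.7 to 16.0, 102 UMIs), a ratio of 4.14 (3.84 to 4.45). Both were therefore higher in TKO1, and their partners were not different to that degree. Cox6a1 had 1516 and 1134 CPM and Cox7a2 1071 and 1234 CPM. Ndufa4l2 (chr10:127514967-127517154), an isoform of Ndufa4 known as a hypoxia-induced gene, was instead higher in TKO2, at 0.946 CPM (0.258 to 2.42, 4 UMIs) in TKO1 and 9.80 CPM (7.72 to 12.3, 76 UMIs) in TKO2, a ratio of -3.37 (-5.28 to -1.96). Ndufa4 itself, a subunit of complex IV, had 616 and 1107 CPM (-0.85). Cox6b2, the testis form of subunit 6b, had 18.9 and 9.67 CPM (0.97, 0.50 to 1.44) and its partner Cox6b1 1228 and 1008 CPM. Cox4i1, the widely used form of subunit 4, had 2180 and 2534 CPM, whereas its lung-enriched partner Cox4i2 had 1 and 2 UMIs, Cox7b2 0 and 2, and Cox8b and Cox8c none. Cox8a had 952 and 1568 CPM (-0.72).

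The restricted isoforms were not spread evenly over the clusters. Cox6a2 in TKO1 lay between 161 and 509 CPM in 6 clusters, but at 74.1 CPM in cluster 3 and 17.7 CPM (6 UMIs) in cluster 7, while TKO2 clusters ran from 1.04 to 27.0 CPM. Its highest value was in cluster 4, which was led by ciliated cell genes. Cox7a1 ran from 2.94 CPM (1 UMI, cluster 7) to 53.7 CPM in TKO1, and from 0 to 4.15 CPM in TKO2. For Cox6a2 and Cox7a1 the ranges of the tumors therefore overlapped through cluster 7 of TKO1, which was led by Nefm, Nefl, Iapp and Mycl. Cox6b2 was highest in cluster 6 of TKO1, at 77.9 CPM (48 of the tumor's 80 UMIs), a cluster led by mitotic genes such as Ube2c and Plk1. Ndufa4l2 reached 28.7 CPM (25 UMIs) in cluster 6 of TKO2, led by Spp1 and H19, and lay between 0 and 18.8 CPM in the others.

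Among the widely used subunits, Ndufs5, Ndufb4 and Ndufv3 of complex I and Atp5j of complex V led toward TKO1. Complex V as a whole was slightly lower there, as given above. Ndufs5 (chr4:123712710-123718202), an accessory subunit of complex I, had 28.2 CPM in TKO1 (23.3 to 33.7) and 4.77 CPM in TKO2 (3.36 to 6.57), a ratio of 2.56 (2.02 to 3.13). Its level in TKO1 was uneven, at 127 CPM in cluster 7 (43 of 119 UMIs), 48.7 CPM in cluster 6 and 8.56 to 18.5 CPM in the others. Ndufs5 also shares 42.6% of its 3' end with the copy BC002163. Ndufb4 (chr16:37647170-37654453), an accessory subunit of the membrane arm of complex I, had 483 CPM (462 to 505) and 162 CPM (153 to 172), a ratio of 1.57 (1.47 to 1.68). Atp5j, coupling factor 6 of the stalk of complex V, had 1011 and 502 CPM (1.01), and Ndufv3, an accessory subunit of complex I, 735 and 396 CPM (0.89). Ndufaf3, an assembly factor of complex I, had 159 and 84.9 CPM (0.90). For Ndufs5, Ndufa12, Ndufb4, Atp5j, Atp5o and Ndufa11, 6 of 88, every TKO1 cluster was above every TKO2 cluster, as for 1473 of all 12926 genes.

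Toward TKO2 the leading subunits were mostly of complex IV. Cox5a (chr9:57521274-57532426), a core-associated nuclear subunit of complex IV, had 407 CPM in TKO1 (388 to 426) and 854 CPM in TKO2 (834 to 875), a ratio of -1.07 (-1.15 to -0.99). Ndufb8, an accessory subunit of complex I, had 499 and 853 CPM (-0.77), and Atp5f1, subunit b of the stalk of complex V, 545 and 831 CPM (-0.61). A pair of complex I assembly factors was also lower in TKO1, Ndufaf4 with 68.6 and 159 CPM (-1.21) and Ndufaf6 with 26.7 and 60.7 CPM (-1.18). Ndufaf3 and Ndufaf4, whose proteins act together, were thus on opposite sides. Every TKO2 cluster was above every TKO1 cluster for 8 of 88 genes, Atp5f1, Ndufaf6, Ndufaf4, Atp5b, Cox5a, Uqcrfs1, Cox8a and Ndufb8, and for 692 of 12926 genes. The 4 subunits of complex II, all nuclear and also enzymes of the tricarboxylic acid cycle, were split. Sdha (flavoprotein) had 105 and 81.9 CPM and Sdhb (iron-sulfur protein) 572 and 418 CPM, while the membrane anchors Sdhc and Sdhd had 70.3 and 104 CPM, and 291 and 374 CPM.

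**Figure D3:**
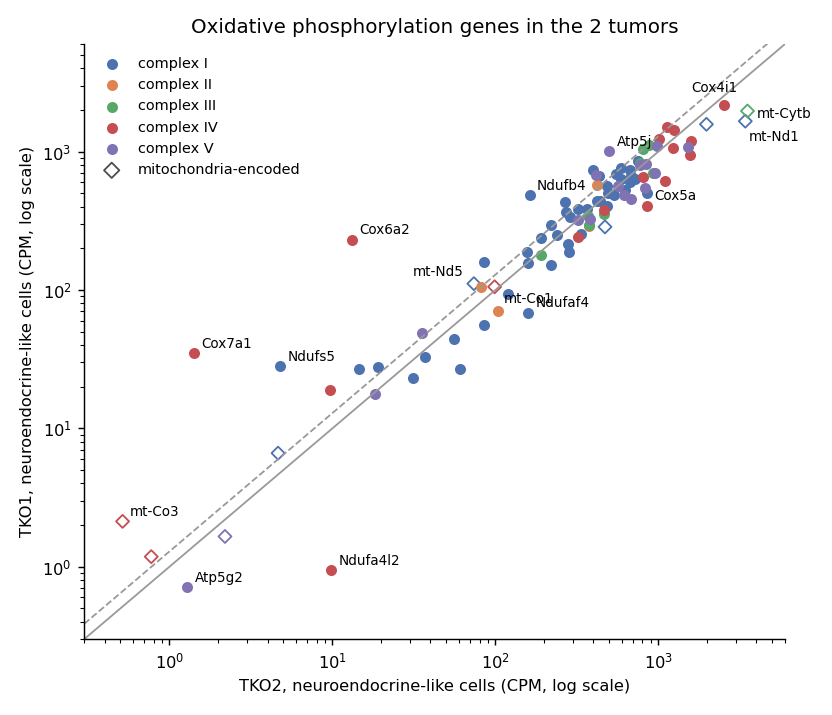
Level (CPM, both axes logarithmic) of each oxidative phosphorylation gene with at least 10 UMIs in neuroendocrine-like cells of TKO2 (x) and TKO1 (y). The solid line is equality and the dashed line the median gene (0.37 in log2); Cox7a1 and Cox6a2 lie far above both lines and Ndufa4l2 far below.

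Genes next to some of these members lay on the same side of the median gene, and genes next to others did not. Of 17 members looked at, the median of the genes within 2 Mb was on the member's side for 8 of 9 members above the median gene and for 4 of 8 below it. They are the members named by their ratio between the tumors, with Atp5o added by choice. Atp5o is counted among the 8, and its neighbours had the highest median of all, 0.96 (30 genes). The same count was not made for genes outside the rule, so whether 8 of 9 is unusual was not tested. On chromosome 16 the median relative log2 ratio of 396 genes was 0.70, and that of its 3 members Ndufb4, Atp5j and Atp5o was 0.64, all 3 above the median gene. On chromosome 19 the median of 428 genes was -0.65, and that of Ndufs8, Ndufv1, Cox8a and Ndufb8 was -0.70, with 0 above. Chromosomes 16 and 19 had the medians farthest from 0 among those with nuclear members. Members also lay low without such a shift, as on chromosome 13 at -0.76 (0 of 7 above, all genes -0.20) and chromosome 11 at -0.53 (0 of 4, all genes 0.02). On chromosome 4 all genes were at 0.27 and the members at -0.51, with 2 of 6 above. Within 2 Mb of Ndufs5, 19 of 26 genes were above the median gene, with a median of 0.67. The neighbours of Ndufb4 had a median of 0.69 (31 genes), those of Cox8a -0.71 (113 genes) and those of Ndufb8 -0.46 (47 genes). Next to the muscle isoforms the medians were near 0, at 0.03 for Cox6a2 (87 genes) and 0.09 for Cox7a1 (93 genes). The neighbours of Atp5j were on the other side, at -0.17 (5 genes, where Atp5j was at 0.64). So were those of Atp5f1 at 0.25 (33 genes), Ndufaf6 at 0.37 (19 genes), Ndufa4l2 at 0.13 (72 genes) and Ndufaf4 at 0.11 (4 genes), all members below the median gene. DNA copy number was not measured, and its part in these values was not tested.

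Promoters are shown because nuclear respiratory factor 1 and ETS-family factors such as GABPA are known to bind many respiratory chain promoters. RefSeq sequence (GRCm38.p6) of the 250 bases before the start was matched for 73 of the 92 nuclear genes, and both strands were searched. GCATGCGC, the core of the nuclear respiratory factor 1 site, was in 9 of 73 promoters (12.3%) and in 2.56% of all 27025. CCGGAAG, an ETS motif, was in 13 (17.8%) and 7.83% of all. AAGATGG (YY1) was in 1 (1.37%, all 5.18%), AAGGTCA (ESRRA) in 5 (6.85%, all 4.70%) and ACGTG, the hypoxia response core, in 14 (19.2%, all 18.5%). GCATGCGC or CCGGAAG was in 20 promoters and both in 2. Those of 3 genes that lay apart between the tumors are printed, with motif letters in capitals. Ndufaf4 (chr4:24897833-24898082, forward strand) holds GCATGCGC on both strands in overlap, Atp5j (chr16:84834977-84835226, reverse strand, the downstream one of a pair of starts) holds AAGATGG and CCGGAAG, while the 250 bases before its upstream start (chr16:84835626-84835875) hold none of the motifs, and Cox7a1 (chr7:30183921-30184170, forward strand) also holds none.
Ndufaf4: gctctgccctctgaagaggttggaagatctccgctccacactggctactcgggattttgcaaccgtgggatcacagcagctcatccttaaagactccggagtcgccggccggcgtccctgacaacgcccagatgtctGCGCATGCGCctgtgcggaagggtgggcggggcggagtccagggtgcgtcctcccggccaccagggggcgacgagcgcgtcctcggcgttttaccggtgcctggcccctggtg
Atp5j: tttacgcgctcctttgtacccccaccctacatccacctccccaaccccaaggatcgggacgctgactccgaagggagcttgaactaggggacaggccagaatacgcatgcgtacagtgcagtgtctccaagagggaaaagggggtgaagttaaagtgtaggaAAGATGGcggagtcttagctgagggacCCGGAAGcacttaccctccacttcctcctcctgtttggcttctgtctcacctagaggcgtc
Cox7a1: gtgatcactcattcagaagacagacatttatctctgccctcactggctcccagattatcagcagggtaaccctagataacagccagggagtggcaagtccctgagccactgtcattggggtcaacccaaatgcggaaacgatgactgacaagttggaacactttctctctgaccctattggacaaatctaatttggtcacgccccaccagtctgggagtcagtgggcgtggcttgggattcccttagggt

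Genes that work with these complexes but fall outside the symbol rule differed in both directions as well. Of 8 measured among the missing subunits, the electron carrier and the inhibitor, 0 were at least 2-fold higher relative to the median gene and 3 at least 2-fold lower, beside 23.2% and 18.7% of all genes, the shares to set the next counts against too. Cycs (cytochrome c) had 139 and 241 CPM (-0.79), Cyc1 (cytochrome c1 of complex III) 294 and 394 CPM (-0.43) and Usmg5 (a small subunit of complex V) 207 and 352 CPM (-0.77). Atpif1, the inhibitor of complex V, had 2586 and 1915 CPM (0.43), and Higd1a, a hypoxia-induced partner of complex IV, had 714 and 327 CPM (1.12). Of 26 genes of mitochondrial RNA synthesis and stability, 1 (Fastkd1) was that much higher and 10 lower, Ssbp1 among the latter. Lrpprc, which stabilises mitochondrial messages, had 33.8 and 14.4 CPM (1.23), and its partner Slirp 156 and 219 CPM (-0.49). Tfam, which packages and starts transcription of mitochondrial DNA, had 51.8 and 65.5 CPM (-0.34), and Ssbp1, which binds its single strands, 88.7 and 155 CPM (-0.81). Of 40 assembly factors outside the rule, 2 (Atpaf1 and Taco1) were higher and 7 lower. The copper chaperone Cox17, short of 2-fold once centred, had 686 and 271 CPM (1.34). Of 10 regulators, 0 were higher and 3 lower. Ppargc1a had 2 and 7 UMIs, and Nrf1 had 28.6 and 30.9 CPM. Of 76 mitochondrial ribosomal protein genes 69 were below the median gene, with 0.909% and 1.14% of UMIs (-0.33), and of 16 genes of the tricarboxylic acid cycle 13 were (0.181% and 0.222%, -0.30). Of 17 glycolysis genes 12 were above it, with 1.24% and 0.795% (0.64).

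Neuroendocrine-like cells had a higher nuclear-encoded share than the other cell classes. In TKO1 it was 4.28%, against 3.33% in macrophage-like cells (log2 ratio 0.36, 0.32 to 0.40) and 2.45% in club cell-like cells (0.81, 0.76 to 0.85). In TKO2 it was 4.39% against 3.43% in macrophage-like cells (0.36, 0.32 to 0.39). The median log2 ratio of all measured genes was 0.47 and 0.43 against macrophage-like cells and 0.66 against club cell-like cells, so the summed nuclear part lay slightly below the median gene in the former comparison and above it in the latter. The mitochondria-encoded share was 0.572% against 0.548% in macrophage-like cells of TKO1 (0.06, -0.04 to 0.17) and 0.958% against 0.793% in TKO2 (0.27, 0.20 to 0.34). In club cell-like cells it was 0.366% (0.339 to 0.393), a ratio of 0.65 (0.54 to 0.75). The unnamed cells of TKO2 held 0.918% and 3.56%. These classes differ in depth and number of cells, with medians of 1314 and 1654 UMIs in macrophage-like cells and 1680 in club cell-like cells.

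A few members set the cell classes apart. Cox6a2 had 231 CPM in neuroendocrine-like cells of TKO1, 21.0 CPM (3 UMIs) in macrophage-like cells and 25.4 CPM (5 UMIs) in club cell-like cells. In TKO2 it had 13.1 CPM in neuroendocrine-like and 21.9 CPM (5 UMIs) in macrophage-like cells, so a higher level in neuroendocrine-like cells was seen in TKO1 and was not detectable in TKO2. Cox7a2 was higher in neuroendocrine-like cells of both tumors, at 1071 against 587 CPM (0.87, 0.56 to 1.20) and 1234 against 701 CPM (0.82, 0.59 to 1.05). mt-Cytb was at 1967 against 1461 CPM (0.43) and 3529 against 2600 CPM (0.44). In both tumors this was close to the median gene given above, so mt-Cytb differed no more than the typical gene. Cox8a changed side between the tumors, at 952 against 1329 CPM in TKO1 (-0.48, -0.69 to -0.26) and 1568 against 1175 CPM in TKO2 (0.42, 0.24 to 0.60). Its TKO2 value was close to the median gene, so only TKO1 departed from it, and the difference between the tumors was not tested.

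To relate the genes to hypoxia, cells with at least 1000 UMIs were thinned to 1000, and cells with at least 2 UMIs of Bnip3, Ndrg1 and Adm together were set against cells with none. This gave 598 and 1049 cells in TKO1 (27.8% of 2150 cells high, median 1365.5 and 1409 UMIs) and 169 and 2473 cells in TKO2 (5.60% of 3019 high, medians 2098 and 2117). A further 503 and 377 cells had 1 UMI and lay between. The shares were then taken from all UMIs of those cells. Bnip3 had most of the UMIs that set the classes, 2472 of them in the high cells of TKO1, against 109 of Ndrg1 and 74 of Adm. Of the macrophage-like cells, 4 of 82 (4.88%) and 1 of 113 (0.885%) were high by the same count.

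The mitochondria-encoded share was lower in cells with hypoxia gene UMIs in both tumors, and the nuclear share less so. In TKO1 it was 0.531% against 0.597% (log2 ratio -0.17, -0.22 to -0.12) and in TKO2 0.765% against 0.977% (-0.35, -0.41 to -0.30). The nuclear share was 4.17% against 4.32% (-0.05, -0.07 to -0.03) and 4.04% against 4.43% (-0.13, -0.15 to -0.11). The median log2 ratio of all genes was -0.03 in both. The mitochondria-encoded share was lowest in the cells with most hypoxia UMIs. With 0, 1, 2, 3 and at least 4 UMIs the mitochondria-encoded share was 0.597%, 0.555%, 0.562%, 0.521% and 0.488% in TKO1. In TKO2 it was 0.977%, 0.869%, 0.776%, 0.762% and 0.700%, the last 2 from 33 and 22 cells. In TKO1 the values at 1 and 2 UMIs did not differ beyond their counting intervals. The nuclear share went from 4.32% to 4.11% and from 4.43% to 3.90%, not at every step. Among the macrophage-like cells too few were high to compare.

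**Figure D4:**
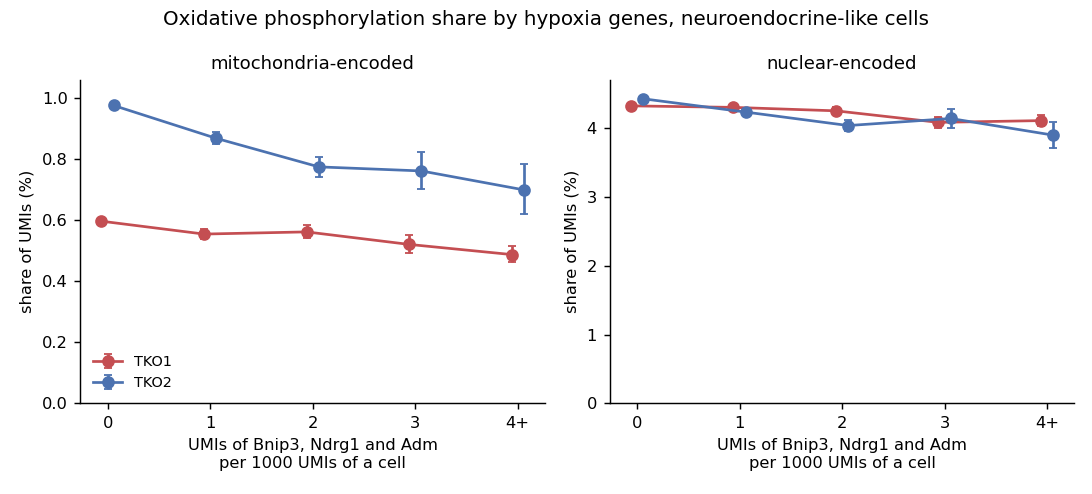
Percent of UMIs from mitochondria-encoded and nuclear-encoded genes against the number of UMIs of Bnip3, Ndrg1 and Adm per 1000 UMIs in neuroendocrine-like cells of TKO1 and TKO2, with exact 95% counting intervals. The mitochondria-encoded share goes from 0.597% to 0.488% in TKO1 and from 0.977% to 0.700% in TKO2.

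The difference was present within clusters, within cell cycle states and within 4 bins of cell depth, the last a comparison chosen after seeing the data. Every neuroendocrine-like cluster with at least 20 high cells, clusters 0 to 6 of TKO1 and 0 to 3 of TKO2, had a lower mitochondria-encoded share in its high cells. In cluster 0 of TKO1 it was 0.571% against 0.628%, in cluster 3 0.506% against 0.634%, and in cluster 1 0.621% against 0.636%, where the intervals overlapped. In cluster 1 of TKO2 it was 0.542% against 0.961%. Among S phase cells the shares were 0.524% against 0.615% in TKO1 and 0.852% against 1.03% in TKO2, and among G2/M cells 0.463% against 0.548% and 0.761% against 0.915%. Over the depth bins the log2 ratio lay between -0.31 and -0.13 in TKO1 and between -0.61 and -0.24 in TKO2, and that of the nuclear share between -0.09 and -0.03 and between -0.19 and -0.10. Other genes moved with the hypoxia count too. The ciliated cell markers summed to 371 CPM in high cells of TKO1 against 155 CPM, the macrophage markers to 54.3 against 79.8 CPM, and the summed G2/M genes were lower in high cells of both tumors (-1.19 and -0.45), and their part in the result was not tested. Without cluster 4 of TKO1 the ratios there were -0.15 and -0.05.

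By gene, mt-Nd1, mt-Cytb and mt-Nd4 were lower in high cells of both tumors. mt-Nd1 had 1518 against 1779 CPM in TKO1 (-0.23, -0.32 to -0.14) and 2487 against 3525 CPM in TKO2 (-0.50, -0.60 to -0.41). mt-Cytb was at -0.19 (-0.27 to -0.10) and -0.27 (-0.36 to -0.19), and mt-Nd4 at -0.17 (-0.27 to -0.08) and -0.47 (-0.59 to -0.35). mt-Nd2 and mt-Co1 did not follow them in either tumor, nor did mt-Nd5 in TKO2. mt-Nd2 was at 0.13 (-0.09 to 0.34) and 0.05 (-0.16 to 0.26), and mt-Co1 at 0.30 (-0.07 to 0.66) and 0.42 (-0.03 to 0.83). mt-Nd5 was at 0.65 (0.16 to 1.10) in TKO2. In TKO1 mt-Nd5 was at -0.27 (-0.63 to 0.09), an interval too wide to tell it from mt-Nd1, mt-Cytb and mt-Nd4.

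The nuclear complexes were at or below 0 in both tumors. Complex V was at -0.15 and -0.17 with 12 of 14 tested genes below 0 in each tumor, complex II at -0.09 and -0.25, complex III at -0.03 and -0.13, complex I at -0.04 and -0.09, and complex IV at -0.01 and -0.15. In TKO1 the intervals of complexes II, III and IV held 0. Of the nuclear genes with at least 50 UMIs in the cells compared, 49 of 85 in TKO1 and 57 of 84 in TKO2 were below the median gene. At least 2-fold higher relative to the median gene were 0 of 85 in TKO1 (1.55% of all genes) and 0 of 84 in TKO2 (2.79%), and at least 2-fold lower 3 of 85 (2.66%) and 0 of 84 (5.83%). The 3 were Ndufs5 at 10.4 against 41.9 CPM (10 and 72 UMIs), Cox6b2 at 12.5 against 28.0 CPM and the assembly factor Ndufaf5 at 11.5 against 23.9 CPM. The states were spread unevenly over the clusters: clusters 6 and 7, where Ndufs5 was highest, held 36 and 16 of the 598 high cells but 178 and 117 of the 1049 others. Without both clusters, a choice made after seeing the data, Ndufs5 was at -0.59 (-1.92 to 0.64) and Cox6b2 at 0.05 (-1.61 to 1.64), so neither difference was detectable in the remaining cells. Ndufaf5 was then at -1.34 (-2.69 to -0.16), but its interval held 0 without cluster 4 (-2.18 to 0.11) and without cluster 7 (-2.06 to 0.08).

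Single subunits moved in particular ways. Cox6a2 had 319 CPM in high cells of TKO1 against 167 CPM (0.94, 0.70 to 1.17), and 15.1 against 13.5 CPM in TKO2, where the interval held 0 (-1.33 to 1.34). Cluster 4 of TKO1, where Cox6a2 was highest, held 171 of the 598 high cells and 33 of the 1049 others, and without it the ratio was 0.75 (0.47 to 1.02). Within clusters the difference was clear in cluster 6, at 349 against 126 CPM (1.47, 0.73 to 2.18), while in each other cluster with at least 20 high cells the interval held 0, as in cluster 4 at 470 against 482 CPM (-0.72 to 0.71). Ndufv3 was higher in both, at 900 against 644 CPM (0.48, 0.35 to 0.61) and 485 against 389 CPM (0.32, 0.10 to 0.53). Without clusters 6 and 7 of TKO1 its ratio there was 0.34 (0.20 to 0.48). Within single clusters of TKO1 the interval lay above 0 in clusters 0 and 2 and held 0 in the others. In TKO2 the interval held 0 without cluster 0 (0.24, -0.02 to 0.49). Ndufa4 was lower in both, at 453 against 710 CPM (-0.65, -0.81 to -0.49) and 844 against 1150 CPM (-0.45, -0.61 to -0.29). Within single clusters of TKO1 the Ndufa4 interval lay below 0 in clusters 0, 2 and 5 and held 0 in the others, as in cluster 4 (0.07, -0.71 to 0.93). Without cluster 4 the ratio was -0.59 (-0.77 to -0.42). Within single clusters of TKO2 the interval lay below 0 in clusters 0, 1 and 3 and held 0 in the others. Without cluster 0 of TKO2, where Ndufa4 was at -1.18, the ratio was -0.28 (-0.46 to -0.11). Ndufa4l2, the isoform of Ndufa4, had 45.2 against 4.72 CPM in TKO2 (3.26, 2.33 to 4.16) and, in TKO1, 0 UMIs in high cells. It was below the 50 UMIs set for naming genes by rank and for the counts past 2-fold, so those counts leave it out. Its ratio was not taken within single clusters. Further in TKO1, Cox7a1 had 38.6 against 30.9 CPM (-0.32 to 0.96), Ndufaf3 172 against 139 CPM (0.02 to 0.61), the assembly factor Atp5sl 33.4 against 21.0 CPM (-0.06 to 1.40) and Ndufaf6 18.8 against 29.1 CPM (-1.50 to 0.17), with the interval of the log2 ratio in parentheses.

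In TKO2 the genes toward the high cells were Cox7a2l, a supercomplex assembly factor, with 397 against 318 CPM (0.32, 0.08 to 0.56), and Ndufs7, a core subunit of complex I, with 329 against 270 CPM (0.28, 0.02 to 0.54). Lower were Atp5o, the oligomycin sensitivity protein of complex V, with 307 against 431 CPM (-0.49, -0.77 to -0.23), Sdhb with 307 against 425 CPM (-0.47, -0.75 to -0.21) and Sdha with 52.8 against 82.0 CPM (-0.64, -1.34 to -0.01). In TKO1 Sdha was at 0.16 (-0.21 to 0.52) and Sdhb at -0.08 (-0.23 to 0.07). Among the low genes of TKO2 the intervals held 0: Ndufaf1 had 22.6 against 14.5 CPM, Cox6b2 12.6 against 9.93 CPM, Ndufaf6 40.2 against 63.5 CPM and Ndufaf5 20.1 against 31.1 CPM. Outside the rule, Higd1a was higher in high cells of both, with 994 against 556 CPM and 455 against 313 CPM. Of the glycolysis genes, 12 of 12 and 13 of 14 were above the median gene, and their summed ratios were 1.11 and 0.76. Of the tricarboxylic acid cycle genes, 11 of 15 and 11 of 16 were below it, with summed ratios of -0.13 and -0.23.

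For cycling, cells with at least 3 UMIs of the S and G2/M gene lists per 1000 were compared with cells with none. In TKO1 these were 1325 and 182 cells, and in TKO2 2523 and only 67 cells. The mitochondria-encoded share was 0.562% against 0.552% in TKO1 (0.03, -0.05 to 0.10), a difference not detectable at this depth, and at -0.004 (-0.09 to 0.08) without cluster 4, which held 40 of the 182 cells. In TKO2 it was 0.940% against 1.00% in TKO2 (-0.09, -0.17 to -0.01). The nuclear share was 4.25% against 4.29% (-0.01) and 4.34% against 4.60% (-0.08). Ciliated cell markers were lower in cycling cells, at 189 against 386 CPM in TKO1 and 17.9 against 68.6 CPM in TKO2, as were neuroendocrine markers, at 20484 against 28669 CPM and 2034 against 2395 CPM, and their part in the result was not tested. At least 2-fold higher in cycling cells relative to the median gene were 1 of 84 nuclear genes in TKO1 (8.15% of all genes) and 2 of 85 in TKO2 (10.8%), and at least 2-fold lower 0 of 84 (2.43%) and 1 of 85 (10.8%). These rest on few UMIs: Ndufaf6 in TKO1 with 62 and 3 UMIs, and in TKO2 Sdha with 528 and 3, Ndufaf5 with 204 and 2, and Ndufa4l2 with 46 and 11. Ndufa4l2, which had 7.15 CPM in cycling cells and 83.9 CPM in cells with no cycle UMI (-3.55, -4.52 to -2.45), was the clearest of them. In TKO1, Ndufb4 had 432 against 658 CPM (-0.60, -0.84 to -0.37), the core subunit Ndufs3 84.7 against 147 CPM (-0.79, -1.29 to -0.26) and Cox7a1 34.4 against 62.5 CPM (-0.86, -1.63 to -0.01). The intervals held 0 for Ndufaf6 (-0.30 to 3.63), Cox6b2, Ndufs5, Ndufaf2, Ndufaf4 and Ndufaf7 in TKO1 and for Ndufaf5 (-0.82 to 4.11), Cox6a2, Atp5l, Cox6b2, Ndufaf3 and Ndufaf6 in TKO2. Ndufaf1 had 93 UMIs in cycling cells of TKO2 and 0 in the others, whose total allows up to 22.9 CPM, so no direction can be given.

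The cycle phases could be compared with more cells, 477 in G2/M and 632 in S in TKO1 and 1340 and 1035 in TKO2. Both parts were lower in G2/M. The mitochondria-encoded share was 0.520% against 0.580% in TKO1 (-0.16, -0.21 to -0.10) and 0.892% against 1.01% in TKO2 (-0.18, -0.21 to -0.16). The nuclear share was 4.02% against 4.42% (-0.14, -0.16 to -0.12) and 4.19% against 4.55% (-0.12, -0.13 to -0.11), and 68 of 83 and 71 of 84 nuclear genes were below 0, with the median of all genes at -0.03 and -0.01. The cytoplasmic ribosomal protein genes were at -0.01 and -0.07 in the same comparison. G2/M cells were deeper, with medians of 1692 against 1412 UMIs and 2470 against 1981 UMIs. Over 4 bins of all neuroendocrine-like cells, the nuclear share was lowest in the deepest (4.02% in TKO1 and 4.15% in TKO2). Depth was then binned anew among cells with at least 1000 UMIs, a comparison chosen after seeing the data. Within these 4 bins the nuclear ratio lay between -0.11 and -0.09 in TKO1 and between -0.17 and -0.07 in TKO2. The mitochondria-encoded ratio lay between -0.22 and -0.05 and between -0.25 and -0.10. The deepest bins ran from 1915 to 5662 and from 2980 to 12908 UMIs, so depth could still differ within a bin. In the shallower 2 of the 4 bins of TKO1 the mitochondria-encoded interval held 0 (-0.21 to 0.12 and -0.28 to 0.02).

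The summed ratio of each nuclear complex was below 0 in both tumors. Complex I was at -0.16 and -0.13, complex II at -0.16 and -0.14, complex III at -0.20 and -0.15, complex IV at -0.09 and -0.09 and complex V at -0.14 and -0.12, while the factors were at 0.09 and -0.15. mt-Cytb had 1731 against 2012 CPM (-0.22, -0.31 to -0.12) and 3231 against 3751 CPM (-0.22, -0.25 to -0.18). Cox6b2, among the genes that went the other way, was higher in G2/M, at 50.6 against 5.90 CPM in TKO1 (3.10, 1.87 to 4.62) and 11.5 against 4.65 CPM in TKO2 (1.30, 0.32 to 2.41). Cox4i1, a widely used form of another subunit of complex IV, was at -0.07 and -0.02. Cox6b2 was chosen here after its values were seen in the clusters.

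**Figure D5:**
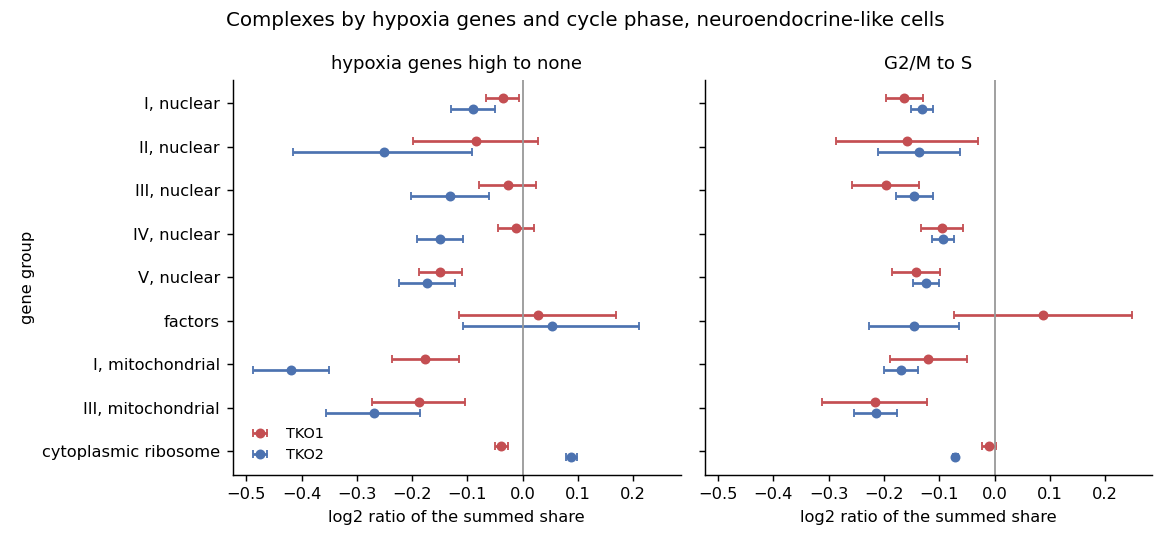
Log2 ratio of the summed UMI share of each complex, nuclear and mitochondria-encoded, between hypoxia-high and hypoxia-none cells and between G2/M and S cells of TKO1 and TKO2, with exact 95% counting intervals. Nuclear complex V is at -0.15 and -0.17 by hypoxia genes, and all nuclear complexes are below 0 in G2/M.

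Cell to cell, the mitochondria-encoded part varied more than counting alone gives. At 1000 UMIs per cell it had a mean of 5.79 UMIs in TKO1 and 9.90 in TKO2, with Fano factors (variance over mean, 1 for pure counting) of 1.85 and 2.76. The nuclear part had means of 43.8 and 45.0 UMIs and Fano factors of 2.43 and 2.24, against 11.7 and 11.1 for the cytoplasmic ribosomal protein genes. The Fano factor grows with the mean, so the spread was also set against the mean. The SD over the mean was 0.566 and 0.528 for the mitochondria-encoded part, 0.235 and 0.223 for the nuclear part and 0.333 and 0.219 for the ribosomal genes. With the counting part of the variance taken off it was 0.384 and 0.422, 0.180 and 0.166, and 0.318 and 0.209. Relative to its mean, the mitochondria-encoded part thus varied most of these 3 from cell to cell in both tumors. The nuclear part varied least of the 3 in both tumors only with the counting part taken off. By that measure the mitochondrial ribosomal protein genes, at 0.175 and 0.161, were slightly below the nuclear part.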

How the data were processed

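Raw UMI counts, 1 matrix of genes by barcodes for each tumor, are the data as the authors deposited them. The submitters' processing notes name Cell Ranger, Seurat and mm10, with no versions, and the filter on barcodes is not given in the sources used here. Of 27998 identifiers, 27645, with all 105 members, had a position in GENCODE vM21.

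Each tumor was clustered separately with Seurat 5.3.0 (R 4.3.3) on 1000 variable genes and 10 components at resolution 0.8. A class other than neuroendocrine-like needed at least 3 markers at least 4-fold above the other cells and, by a rule added after seeing the clusters, most of its list. The neuroendocrine-like class needed at least 3 markers 2-fold above the macrophage-like cells. Scrublet (scanpy 1.11.5) called 0 doublets, so removing the 151 and 136 cells above the 95th percentile of its score was added. Counts were summed per tumor and class and scaled to CPM in Python 3.11.15 (numpy 2.4.6, scipy 1.17.1), and TMM factors came from edgeR 4.0.16. Genes with 0 UMIs in one group were set at 3 UMIs where they were counted against the median gene. Counts and median genes within a tumor used genes with at least 50 UMIs over the groups compared. The self-test used simulated counts.

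Members and gene lists were chosen with earlier results of these data known. Named are the mt- genes, complex II, the restricted isoforms with their partners, and the nuclear members of at least 50 UMIs with the largest ratios, 8 each way between tumors and 5 each way within a tumor. Others are named as examples from the lists or where they did not overlap between clusters. The values of 1 member selected by the naming rule are not reported here.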

Additional observations from a re-analysis of the deposited data

Results flagged for a closer look

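The summed ratios of the nuclear subunits of complex V with cycling lay on opposite sides of 0 in the tumors. Both parts, every complex and the factors were looked at in the cell class, hypoxia, cycling and phase comparisons, and nothing else was flagged. In TKO1 their summed share was higher in cycling cells than in cells with no cycle UMI (log2 ratio 0.077, 0.02 to 0.14), and in TKO2 it was lower (-0.15, -0.23 to -0.07). The interval of TKO1 held the ratio of the median gene, so only TKO2 departed from that gene. The difference between the tumors was not tested, and the cells without cycle UMIs numbered 182 and 67.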

How the results depend on the processing

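Of 105 values recomputed under alternatives, 77 stayed within the reported counting interval or, for counts, within 1.5 times. Of the rest, 27 moved further, and 1 changed sign where the reported interval excluded 0. The last was Cox6b2 by hypoxia genes in TKO1, at 0.050 without clusters 6 and 7. Between tumors, the mitochondria-encoded ratio became -1.12 with TMM factors, -0.97 with mt- and ribosomal protein genes taken out of the total, and -0.60 without mt-Nd1 (chosen after seeing the data). The nuclear ratio became -0.060 over all retained cells, -0.081 with more than 200 genes, -0.41 with TMM factors and -0.26 on the reduced total. By hypoxia genes, the nuclear ratio of TKO1 became -0.087 and -0.073 with thinning to 500 and 2000 UMIs, -0.031 with at least 1 UMI and -0.077 with at least 3, where the mitochondria-encoded ratio became -0.25. In TKO2 the mitochondria-encoded ratio became -0.27 with thinning to 500 UMIs and -0.22 with at least 1 UMI, and the nuclear ratio -0.067 and -0.084, and -0.11 on the reduced total. By cycling, thinning to 500 UMIs gave -0.056 and -0.063 for the mitochondria-encoded and nuclear parts of TKO1 and -0.12 for the nuclear part in TKO2. Thinning to 2000 UMIs left 4 and 3 cells without cycle UMIs and gave 0.21 and 0.024 in TKO1 and -0.38 and -0.16 in TKO2, and the reduced total gave -0.15 for the nuclear part of TKO2. The mitochondria-encoded cycling ratio of TKO1, 0.03 as reported with an interval that held 0, is thus of no fixed sign. The nuclear ratio, -0.01 as reported with an interval that held 0, was above 0 only with thinning to 2000 UMIs (-0.11 to 0.16). With thinning to 500 UMIs (901 against 749 cells) both intervals excluded 0, at -0.106 to -0.006 and -0.081 to -0.045. The nuclear interval also excluded 0 with at least 5 cycle UMIs (-0.038, -0.067 to -0.010). Causes of these shifts were not tested. The count of members at least 2-fold apart stayed between 9 and 15 under every alternative (12 as reported). With TMM factors and with the reduced total it could not change, because the ratios are centred on the median gene. Those entries are counted among the 77 and show nothing about stability. Cycling comparisons are limited by the few cells without cycle UMIs, and genes under 10 UMIs by their counts. No paired analysis was possible because each tumor is 1 library.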
